A study of Homo sapiens with 27 samples.

Results

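The comparison described here is the later step of an expansion course in U2OS control cells, from confluence (day 0) to 2 days past confluence (day +2), and its members are all genes that passed a filter on low counts. Of the 55882 gene symbols in the deposited count tables, 19362 passed the filter and were tested, in 6 of the 27 libraries. The study followed a U2OS control line and 2 lines with short hairpin RNAs against MMP2, a secreted matrix protease gene, through 3 densities, named Proliferating (subconfluent, day −2), Confluent (day 0) and OverConfluent (day +2) in the labels. U2OS is a human osteosarcoma line. The control line was stably transduced with the blank lentiviral vector pLKO.1 and is labelled WT pLKO.1, and the stable lines were selected with puromycin, so that every control library carried the vector and none was untransduced. Cells of all lines were plated at 30% confluence in DMEM with 10% fetal bovine serum, and poly(A) RNA was sequenced from 3 biological replicates at each density. No treatment separated the Confluent from the OverConfluent cells other than 2 further days in culture, so density, time and the state of the medium cannot be told apart. The 3 OverConfluent libraries were compared with the 3 Confluent ones, the same step was then read in the MMP2sh1 and MMP2sh2 lines, and the step from day −2 to day 0 in the control was set beside it.

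Counts on genes totalled 40449661 to 45180727 in the confluent libraries and 33778818 to 39739320 in the overconfluent ones. Libraries of the same day correlated at 0.986 to 0.987 over the log2 levels of the 19362 genes (6 pairs), and libraries of different days at 0.966 to 0.970 (9 pairs). These are descriptions over genes, which are not independent replicates. On the 500 most variable genes, the first principal component held 71.2% of the variance and separated the days, and the second, with 8.47%, set replicate 2 of the confluent libraries apart from the other two. No pair of replicates agreed within sampling noise, and the p values below measure the spread between these 3 samples per day. Mitochondrial genes took 4.67% to 5.42% of the counts at day 0 and 5.49% to 6.37% at day +2. VIM, the intermediate filament gene of mesenchymal cells, was at 790.2 to 837 CPM (counts scaled to library size with edgeR's TMM factors) at day 0 and at 708 to 727 at day +2. The 7 haematopoietic markers summed to 1.35 to 1.89 CPM at day 0 and 0.357 to 0.80 at day +2, with CD3E and CD68 at 0 in all 6 libraries. PTPRC, at 0.951 to 1.469 CPM, made up most of the day 0 sum and was at 0.0504 to 0.237 at day +2. The 7 epithelial markers summed to 37.2 to 40.1 and 40.7 to 44.5 CPM, and KRT19 was at or near 0. CLDN4 made up most of these sums, at 22.04 to 28.97 CPM at day 0 and 24.17 to 29.49 at day +2. EPCAM was at 5.242 to 6.903 and 3.236 to 3.476 CPM, and KRT14 at 4.468 to 6.77 and 11.11 to 13.39. Of the 5 epithelial markers that were tested, 1 was higher at day +2 and 3 were lower by the test given below. The 6 endothelial markers found in the tables summed to 14.3 to 15.4 and 20.2 to 23.4 CPM. The transcription factor gene ERG, at 5.47 ± 0.885 CPM (SD, n = 3) at day 0 and 13.4 ± 0.711 at day +2, made up most of that difference. ATRX, which was listed as a low marker of U2OS, was at 222.6 to 229 CPM at day 0 and 238 to 254 at day +2, which goes against that entry. TERT, the other low marker, was at 0.0498 to 0.155 and 0.204 to 0.622 CPM.

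Adherent cells that fill their dish meet neighbours on all sides and lose room to spread. Contact between cells and a rounder shape hold the transcription coactivators YAP and TAZ out of the nucleus and reduce the pull of the actin cytoskeleton, and many cell types slow or leave the cell cycle at that point. Dense cultures also use up nutrients and growth factors, acidify their medium and lay down matrix, and starvation is known to engage FOXO factors, lysosome formation and the restraint of lipid and ribosome synthesis. Transformed cells such as osteosarcoma cells often go on dividing past confluence.

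The step from confluence to overconfluence moved a large share of the transcriptome, mostly by small amounts. Of the 19362 genes tested, 8016 were called by edgeR's quasi-likelihood test at a Benjamini-Hochberg adjusted p under 0.05, which is 41.4%, and all adjusted p values given for single genes come from that test. The calls split into 4123 genes that were higher at day +2 (21.3% of the genes tested) and 3893 that were lower (20.1%). The 3 libraries of one day lay outside the range of the other 3 for 49.1% of the genes tested. The median size of the change among called genes was 0.43 on the log2 scale, and 5156 of the 8016 changed by less than 1.5-fold. A further limit of 2-fold left 1463 genes (7.56%), of which 959 were higher (4.95%) and 504 lower (2.60%), so that large changes were more often rises. A limit of 4-fold left 258 genes higher and 143 lower. The median log2 change over all genes tested was 0.01. In these bulk samples, a change in the RNA of every cell and a change in the share of cells that carry it cannot be told apart.

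**Figure D1:**
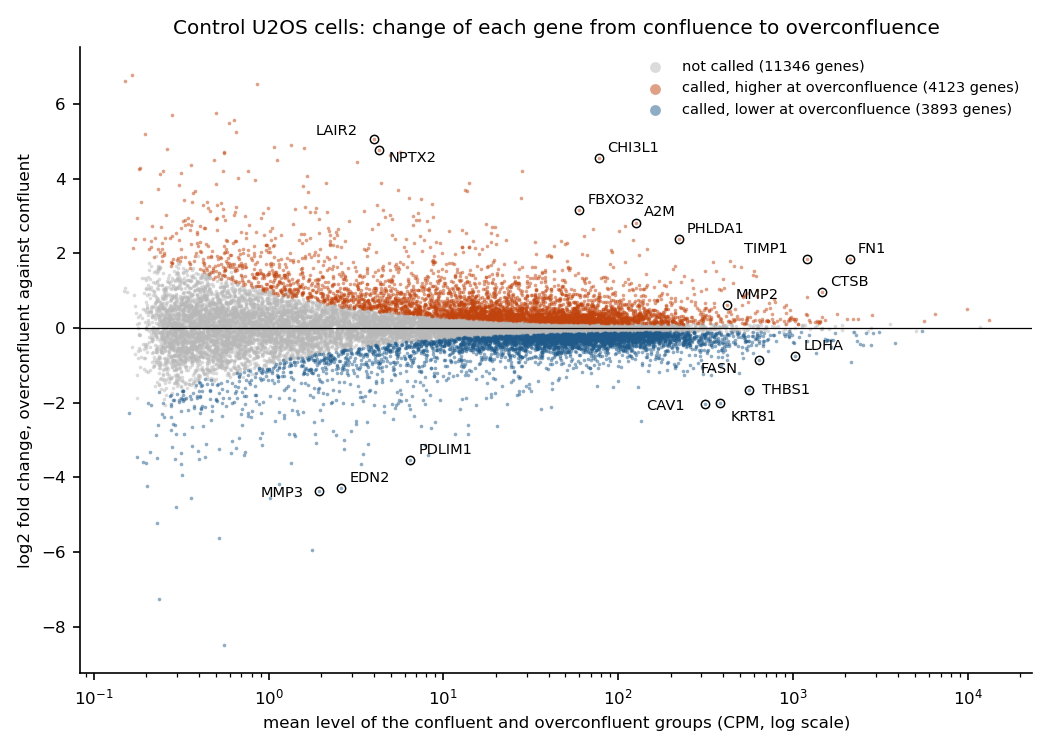
Mean level of each of the 19362 tested genes over the 6 control libraries (CPM, log axis) against its log2 fold change from day 0 to day +2, with some of the genes named in the text marked. Most genes lie within 1 log2 unit of 0, and the widest rises and falls alike, such as those of LAIR2 and EDN2, are of genes with low mean levels.

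The largest rises belonged to genes with few reads at confluence. LAIR2, a secreted decoy receptor for collagens, was at 0.20, 0 and 0.523 CPM in the 3 confluent libraries and at 6.31, 8.10 and 8.97 in the overconfluent ones, a log2 change of 5.05 (standard error 0.37, adjusted p = 2.1e-12). CHI3L1, a secreted chitinase-like glycoprotein on chromosome 1 (203148059 to 203155832, minus strand, GRCh37), was the only one of the 12 with more than 100 CPM at day +2. It rose from 5.79, 6.88 and 6.45 CPM to 136, 151 and 158, which is 23.3-fold (log2 4.54, standard error 0.08, adjusted p = 1.4e-27). The day +2 libraries were thus all far above the day 0 libraries in both genes. The others of the 12 largest rises were NPTX2, which encodes a secreted neuronal pentraxin, DMBT1, a scavenger receptor-like glycoprotein, KLRC2, a natural killer cell receptor, CMKLR1, the chemerin receptor, SLC14A1, a urea transporter, NTRK2, the TrkB neurotrophin receptor, DOK7, an adaptor of the muscle receptor kinase, GABRR1, a GABA receptor subunit, SORCS1, a sorting receptor, and CST5, a cystatin. Their log2 changes lay between 3.70 and 4.77. KLRC2 shares much of its sequence with neighbouring receptor genes, and its counts are uncertain for that reason. SLC14A1 and NTRK2 reached 53.3 ± 4.35 and 26.4 ± 1.28 CPM (SD, n = 3) from 2.89 ± 0.825 and 1.77 ± 0.25.

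The 12 largest falls were those of EDN2, GSG1, PDLIM1, COL5A3, TNNT2, PEAR1, C8orf46, NTRK3, DOCK2, MISP, KIAA1324 and TRIM29, with log2 changes from −4.3 to −2.76. EDN2, an endothelin peptide gene, fell from 5.31, 4.51 and 5.03 CPM to 0.267, 0.433 and 0.0504, a change of −4.3 (standard error 0.35, adjusted p = 1.6e-11). PDLIM1 encodes an actin-associated LIM protein, TNNT2 cardiac troponin T and MISP an actin-bundling protein of the cell cortex. TNNT2 stood at 13.3, 13.5 and 15.4 CPM at day 0 and at 1.39, 1.35 and 1.99 at day +2. DOCK2, an exchange factor for Rac, fell 7.16-fold from 20.6 ± 2.00 CPM. The receptor kinase genes NTRK2 and NTRK3, which bind related neurotrophins, moved in opposite directions, with NTRK3 falling 7.30-fold.

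The genes with the smallest p values had more reads. Among the falls they were CAV1, CPA4, KRT81 and TGFB2, and among the rises CHI3L1, A2M, FBXO32 and GSN. CAV1 on chromosome 7 (116165048 to 116201233, plus strand, GRCh37) encodes caveolin-1, the coat protein of caveolae. Its 3 confluent libraries were at 515, 499 and 500.1 CPM and its overconfluent ones at 116, 131 and 121, a 4.11-fold fall (log2 −2.04, standard error 0.05, adjusted p = 6.8e-24). KRT81, a hair keratin, fell from 607, 583 and 649 CPM to 138, 164 and 157, and CPA4, a carboxypeptidase, from 231 ± 14.6 to 40.7 ± 5.21. In all 3 genes every overconfluent library lay far below every confluent one.

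A2M on chromosome 12 (9220260 to 9268825, minus strand, GRCh37) encodes alpha-2-macroglobulin, a broad protease trap. It rose 7.06-fold, from 31.6, 32.7 and 29.5 CPM to 224, 207 and 232 (log2 2.82, standard error 0.06). FBXO32, which encodes the atrogin-1 subunit of a ubiquitin ligase and is a FOXO target, rose 8.94-fold, from 11.3, 13.4 and 11.2 CPM to 108, 113 and 102. GSN, the actin-severing protein gelsolin, rose from 54.7 ± 1.34 to 237 ± 2.90 CPM. In all 3 genes the gap between the days was many times the spread among replicates.

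**Figure D2:**
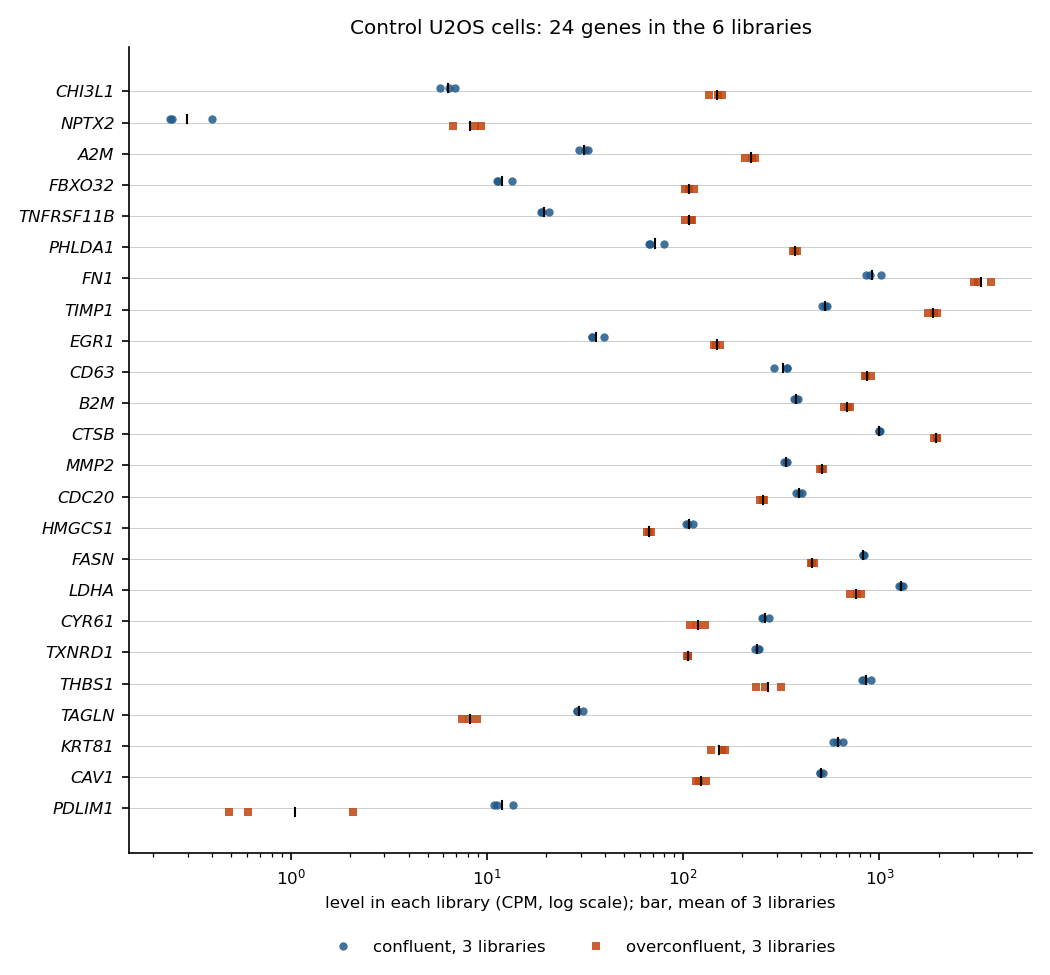
CPM (log axis) of 24 genes in each of the 3 confluent and 3 overconfluent control libraries, 1 point per library. The 3 points of a day lie close together in most genes shown, and the points of the 2 days do not overlap, for example 499 to 515 CPM against 116 to 131 for CAV1. PDLIM1 is an exception in spread at day +2, with 1.99, 0.466 and 0.581 CPM when scaled over all 27 libraries.

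Genes of cell division were lower at day +2, almost without exception and by small amounts. Of 34 DNA replication genes, 31 fell and none rose, with a median log2 change of −0.34, and of 30 mitosis genes 28 fell and none rose, with a median of −0.34, against 20.1% lower and a median of 0.01 over all genes tested. None of these genes fell by more than 2-fold. RRM2, the small subunit of ribonucleotide reductase, went from 453, 448 and 455 CPM to 289.6, 296 and 301 (log2 −0.61, standard error 0.04, adjusted p = 5.1e-13). The thymidine kinase gene TK1 fell 1.44-fold and CLSPN, which encodes the replication checkpoint protein claspin, 1.56-fold.

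Among the mitosis genes, CDC20, an activator of the anaphase-promoting complex, fell from 376, 388 and 402 CPM to 246, 256 and 259. ANLN, the cleavage furrow protein anillin, fell 1.57-fold, and the mitotic cyclin CCNA2 fell 1.49-fold, from 203 ± 6.35 to 136 ± 1.41 CPM. The proliferation marker MKI67 was at 731, 757 and 692 CPM at day 0 and still at 586, 521 and 538 at day +2, a 1.33-fold fall (adjusted p = 2e-08). The division genes thus remained highly expressed at overconfluence.

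Many promoters of such genes hold the letters TTTGAA or TTCGAA, known as the cell cycle genes homology region, near the start site. RefSeq promoter windows on GRCh38.p14, 250 bases before to 50 after the start, were found for 24 of the 30 mitosis genes, and 19 of the 24 held these letters on either strand, against 16.6% of 27305 windows of all symbols. Among the 23 of them that fell, 18 held the letters. The following stretches end at or before the start site and are shown for the genes whose values are given above, with the matching letters in capitals. They lie at chr1:43358890-43358947 (plus strand, CDC20), chr10:128126424-128126496 (minus strand, MKI67) and chr7:36389810-36389861 (plus strand, ANLN).
CDC20: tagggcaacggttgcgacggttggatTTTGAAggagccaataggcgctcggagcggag
MKI67: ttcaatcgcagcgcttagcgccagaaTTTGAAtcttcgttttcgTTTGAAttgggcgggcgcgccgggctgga
ANLN: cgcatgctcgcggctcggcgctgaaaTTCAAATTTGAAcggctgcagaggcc

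For DNA replication genes, the E2F letters TTTGGCGC or TTTCGCGC were found in 9 of 30 matched windows, against 1.18% of all windows. All 9 were of genes that fell, as did 27 of the 30 matched genes. These matches describe letters in a window and not the binding of a factor.

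Among the regulators of G1 phase, falls were more frequent than over all genes tested. Of 20, 11 fell (55%, against 20.1%) and 4 rose (20%, near the 21.3% of all genes). E2F1, E2F2 and CDC25A, which drive entry into S phase, fell 1.39-fold, 1.43-fold and 1.39-fold. The D-type cyclins moved apart, with CCND1 at 306 ± 8.49 CPM at day 0 and 252 ± 9.38 at day +2, and CCND2 at 142 ± 3.84 and 193 ± 4.18. Of 7 tested CDK inhibitors 3 rose (42.86%, against 21.3%) and 2 fell (28.57%, against 20.1%). CDKN1C (p57) rose 1.55-fold and CDKN1B (p27) 1.30-fold, from 91.0, 85 and 85.5 CPM to 112, 123 and 105. CDKN1A (p21), the best known p53 target among them, fell 1.17-fold, from 143 ± 5.64 to 123 ± 1.09 CPM. The p53 targets as a list went both ways, with 9 of 22 higher (40.91%, against 21.3%) and 9 lower (40.91%, against 20.1%). GDF15, a stress-induced cytokine, rose 4.3-fold to 27.2 ± 2.28 CPM, whereas FDXR, a mitochondrial reductase, fell 1.33-fold.

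Genes of ribosome production and lipid synthesis also fell. All 22 ribosome biogenesis genes had negative changes, of which 20 passed the test, and none rose (median −0.34). DKC1, the pseudouridine synthase of small nucleolar particles, fell from 162, 164 and 164 CPM to 115, 122 and 106. GNL3, the nucleolar protein nucleostemin, fell 1.46-fold and UTP20, a ribosomal RNA processing factor, 1.57-fold. MYC, the transcription factor that drives this programme in many cells, fell from 89.3, 89.6 and 100.2 CPM to 42.7, 48.5 and 42.4, a 2.09-fold change (log2 −1.06, standard error 0.06, adjusted p = 1.3e-14). Of the 12 heat shock proteins 9 fell and 2 rose. HSPD1, the mitochondrial chaperonin, fell 1.59-fold, and HSP90AB1, a cytosolic HSP90, fell from 2777 ± 20.4 to 2057 ± 63.0 CPM. BAG3, a co-chaperone of aggregate clearance, was one of the 2 that rose, 1.42-fold.

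Of 20 cholesterol synthesis enzymes, 17 fell and 1 rose (median −0.55). HMGCS1, the HMG-CoA synthase of the mevalonate pathway, was at 112, 106 and 104 CPM at day 0 and 65.6, 68.7 and 67.4 at day +2. SQLE, squalene epoxidase, fell 1.67-fold. In the separate list of uptake, sensing and efflux, the sterol sensor partner INSIG1 fell 1.72-fold. SREBF2, which encodes the transcription factor of the pathway, fell 1.20-fold from 328 ± 4.64 CPM. Of 14 tested genes of uptake, sensing and efflux 8 rose and 4 fell, against 21.3% higher and 20.1% lower over all genes. NPC2 and NPC1, which carry cholesterol out of lysosomes, rose 2.02-fold and 1.58-fold, and ABCG1, an efflux pump, went from 32.4, 32.6 and 31.9 CPM to 59.5, 62.6 and 64.7. The synthesis genes named were lower, and these lysosomal exit and efflux genes higher, in the same libraries.

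Of the matched promoter windows, 0 of 15 of the synthesis genes and 1 of 12 of the uptake, sensing and efflux genes held the sterol regulatory element letters TCACNCCAC on either strand, against 1.15% of all windows. No more can be read from this than that these letters were absent from those windows. The single match was in SREBF2 itself, whose values are above, at chr22:41832946-41833006 on the plus strand of GRCh38.p14 and 133 bases before the start, with the match in capitals.
SREBF2: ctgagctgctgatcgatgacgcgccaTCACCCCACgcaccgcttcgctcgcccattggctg

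Of 15 genes of fatty acid synthesis 11 fell and 2 rose (median −0.39). FASN, the fatty acid synthase, fell from 827, 836 and 819.9 CPM to 462, 455 and 447 (log2 −0.86, standard error 0.04, adjusted p = 6.2e-17). SCD, the desaturase that makes oleate, fell 2.04-fold and ACACA, acetyl-CoA carboxylase, 1.70-fold. The days were widely separated in all 3 genes.

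Of 21 glycolysis genes, 10 fell (47.62%, against 20.1% of all genes tested) and 6 rose (28.57%, against 21.3%). LDHA, lactate dehydrogenase A, fell from 1325, 1256 and 1290.3 CPM to 709.5, 769 and 809, and GAPDH fell 1.32-fold from 4363 ± 71.4 CPM. SLC2A3, a glucose transporter, rose 2.05-fold and HK2, a hexokinase, 1.86-fold, the latter with a wide spread at day +2 (31.9, 44.3 and 48.8 CPM). In the hypoxia list 14 of 22 genes rose (63.6%, against 21.3% of all genes tested) and 5 fell (22.7%, against 20.1%). The median was 0.53. VEGFA, the vascular growth factor, went from 45.9, 46.7 and 44.6 CPM to 119.6, 118 and 107. DDIT4, an inhibitor of mTORC1, rose 3.48-fold and NDRG1, a stress-responsive gene, 2.04-fold. LOX, lysyl oxidase, and CA12, a carbonic anhydrase, fell 1.84-fold and 1.88-fold. Rises in this list were thus above the share over all genes tested, and falls were near it.

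The lysosome list moved the opposite way from the synthesis lists. Of 40 genes tested 29 rose and 2 fell (median 0.40), against 21.3% higher over all genes, and of 23 autophagy genes 12 rose and 2 fell (median 0.22). CTSB, which encodes the cysteine protease cathepsin B, was at 994, 1002 and 998 CPM in the confluent libraries and at 1894, 1966 and 1974 in the overconfluent ones, a 1.95-fold rise (log2 0.96, standard error 0.04, adjusted p = 1.3e-18). CD63, a tetraspanin of late endosomes, rose 2.69-fold from 322 ± 28.6 CPM, and GRN, progranulin, 2.10-fold from 261 ± 6.69. CTSL, the related cathepsin L, was 1 of the 2 that fell, from 117, 114 and 125 CPM to 73.1, 75.0 and 70.9. The 2 cathepsins thus moved in opposite directions. Among autophagy genes WIPI1, a phagophore protein, rose 2.26-fold, GABARAPL1, an ATG8 family member, 1.98-fold, and SQSTM1, the p62 receptor, 1.45-fold.

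Lysosomal genes are known for a shared promoter element bound by TFEB and its relatives, here searched as TCACGTGA. It was present in 6 of 24 matched windows of the lysosome list, against 1.04% of all windows. Of the 24 matched genes 17 rose, and 4 of these 17 held the letters, a share no higher than in the whole list. GAA, acid alpha-glucosidase, is shown as an example chosen after its values were seen. Its log2 change was 0.47, and its window lies at chr17:80101523-80101580 on the plus strand of GRCh38.p14, with the match in capitals 32 bases before the start.
GAA: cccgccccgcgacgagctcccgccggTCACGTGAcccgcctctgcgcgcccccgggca

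Matrix genes were rebuilt in both directions. MMP2, the gene that the hairpins of the other lines target, rose 1.53-fold, from 326, 334 and 339 CPM to 518, 499 and 512 (log2 0.61, standard error 0.04, adjusted p = 4.4e-13). FN1 (chromosome 2, 216225163 to 216300796, minus strand, GRCh37) encodes fibronectin, and was at 849, 1016 and 896 CPM at day 0 and 3699, 3024 and 3166 at day +2, a 3.58-fold rise. TIMP1 (chromosome X, 47441807 to 47446188, plus strand, GRCh37), an inhibitor of matrix metalloproteinases, rose 3.57-fold, from 542, 526 and 511 CPM to 1765, 1899 and 1971. No library of day +2 was within the range of day 0 in any of the 3 genes.

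Of 22 matrix proteases and inhibitors 16 rose (72.7%) and 4 fell (18.2%), against 21.3% and 20.1% of all genes tested. The rises included, with A2M and TIMP1, the serpin SERPINE2, which rose 2.15-fold to 198 ± 4.08 CPM. The falls included the stromelysin MMP3, which went from 3.51, 3.98 and 3.71 CPM to 0.207, 0.102 and 0.227, a 20.7-fold fall from a low level, and the membrane-type protease MMP24, which fell 3.39-fold. Of 21 collagens 10 rose (47.6%) and 6 fell (28.6%). The collagen VI chains rose together, COL6A3 2.61-fold to 893 ± 68.3 CPM, COL6A1 1.82-fold and COL6A2 1.8-fold. COL12A1, a chain of a fibril-associated collagen, fell 1.65-fold and COL5A3 10.4-fold.

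Of 32 matrix glycoproteins and proteoglycans 15 rose (46.9%) and 8 fell (25%), against 21.3% and 20.1% of all genes tested. LAMB1, a laminin chain of basement membranes, rose 2.63-fold to 343 ± 24.2 CPM beside FN1. The falls were led by THBS1, thrombospondin-1, at 814, 908 and 838 CPM at day 0 and 317, 259.8 and 236 at day +2 (log2 −1.66, standard error 0.07, adjusted p = 9.3e-19). TGFBI, a matrix protein induced by TGF-beta, fell 2.98-fold from 139 ± 5.81 CPM, and MFAP5, a microfibril protein, 5.70-fold.

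Targets of YAP and TEAD fell as a list, 15 of 19 with 1 rise and a median of −0.60. CYR61 (CCN1), a matricellular protein that is a standard readout of YAP, went from 251, 256 and 275 CPM to 129, 118 and 109, a 2.20-fold fall (adjusted p = 6.9e-17). FJX1 fell 2.28-fold. CTGF (CCN2), the other standard readout, was at 145, 151 and 163 CPM at day 0 and 144, 142 and 128 at day +2, a change of −0.15 (standard error 0.05, adjusted p = 0.028) that missed the threshold when replicate 3 of either day was left out (highest adjusted p = 0.233). The 2 CCN genes thus differed in size of change although both are named as YAP targets. ASAP1 was the single rise, at 0.17, and was also lost without replicate 1 of either day (highest adjusted p = 0.0729).

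Of 21 genes of the actin cytoskeleton and of serum response factor, SRF, 10 fell (47.62%, against 20.1% of all genes tested). Another 6 rose (28.57%, against 21.3%). TAGLN, transgelin, fell from 30.8, 28.7 and 28.7 CPM to 7.47, 8.94 and 8.11. TPM1, a tropomyosin, fell 2.36-fold from 432 ± 10.4 CPM and FLNC, filamin C, 2.40-fold from 336 ± 8.64. FHL2, a LIM domain cofactor, and ZYX, the focal adhesion protein zyxin, rose 1.45-fold and 1.20-fold. Actin filament and contractile genes thus made up the named falls of the list, with gelsolin, outside it, rising.

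Early response genes rose in cells that were 2 days past confluence. Of 19 immediate early genes 13 rose and 3 fell (median 0.66), and of 10 genes that ERK signalling induces as feedback 9 rose and 1 fell (median 1.19). EGR1, a zinc finger factor induced within minutes of growth factor signalling, was at 34.2, 34.5 and 39.7 CPM at day 0 and 155, 143 and 148 at day +2 (log2 2.04, standard error 0.06, adjusted p = 6.6e-22). FOS rose 3.14-fold and JUNB 2.79-fold, whereas the AP-1 partners FOSL2 and JUN fell 1.92-fold and 1.28-fold. PHLDA1, an ERK target, rose from 80.3, 67.9 and 67.3 CPM to 364, 372 and 382. DUSP5, a nuclear ERK phosphatase, rose 3.91-fold and ETV4, an ETS factor, 2.21-fold. DUSP1, a stress-induced phosphatase, was the single fall of the feedback list, 2.09-fold. MYC, which is an early response gene too, was among the falls.

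Genes of FOXO and growth restraint rose, 12 of 15 with 1 fall and a median of 0.83. Beside FBXO32, KLF9, a transcription factor, rose 2.06-fold and TXNIP, the thioredoxin-interacting protein that limits glucose uptake, went from 20.6, 17.9 and 14.9 CPM to 42.5, 44.2 and 40.5. CITED2, a transcription cofactor, was the single fall, 2.19-fold. In the IGF axis 4 of 9 genes rose (44.44%, against 21.3% of all genes tested) and 2 fell (22.22%, near the 20.1% of all genes). IGFBP7 and IGFBP5, secreted proteins that bind IGFs, rose 3.86-fold and 3.45-fold. IGFBP7 was at 54.3, 54.2 and 54.2 CPM at day 0 and 199, 215 and 213 at day +2. IGF2, a ligand, rose 1.49-fold, and IRS1, the docking protein below the receptor, fell 1.88-fold from 250.4 ± 2.40 CPM.

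Interferon-stimulated genes rose, 23 of 34 with 1 fall and a median of 0.51. IFIT2, an RNA-binding antiviral protein, went from 2.57, 2.06 and 1.84 CPM to 9.24, 10.6 and 9.57. BST2, the tetherin that holds virus particles at the cell surface, was at 40.8, 35.5 and 39.1 CPM at day 0 and 66.9, 72.4 and 76.9 at day +2 (log2 0.91, standard error 0.07, adjusted p = 1.4e-12). STAT2, a factor of the interferon response, rose 1.61-fold. OAS3, an antiviral synthetase, was the single fall, at −0.21 (adjusted p = 0.018), and was lost without replicate 2 of either day (highest adjusted p = 0.118).

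Antigen presentation genes rose with them, 11 of 19 with no fall (median 0.61). B2M, the light chain of MHC class I, went from 377, 366 and 384 CPM to 661, 706 and 691 (log2 0.87, standard error 0.04, adjusted p = 2e-16). The heavy chain gene HLA-B rose 1.60-fold. Reads of the related, highly variable heavy chain genes can be split or lost in alignment to 1 reference, so its level is uncertain. The haematopoietic markers, given above, summed to at most 1.89 CPM in the same 6 libraries, and a share of other cells was not tested.

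The core letters of the interferon-stimulated response element, GAAANNGAA on either strand, were in 15 of 24 matched windows of the interferon list and 7 of 14 of the antigen presentation list, against 8.29% of all windows. Among those that rose they were in 11 of 16 and 5 of 9. OAS3, the single fall of the interferon list, held them too. BST2 and B2M, whose values are given above, carried a pair of overlapping matches each, shown in capitals, at chr19:17405720-17405786 (minus strand) and chr15:44711347-44711413 (plus strand) of GRCh38.p14. IFIT2 had no entry.
BST2: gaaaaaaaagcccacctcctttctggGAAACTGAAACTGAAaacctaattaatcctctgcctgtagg
B2M: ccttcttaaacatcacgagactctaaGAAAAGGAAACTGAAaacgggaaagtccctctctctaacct

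Secreted signals and complement completed the immune picture. Of 15 tested chemokines, cytokines and NF-kB targets 7 rose (46.67%, against 21.3% of all genes tested). Another 3 fell (20%, near the 20.1% of all genes). CX3CL1, the membrane-bound chemokine fractalkine, rose from 17.7, 14.4 and 15.4 CPM to 80.9, 74.6 and 80.9, and CCL2, the monocyte chemoattractant, from 3.73, 4.20 and 3.86 to 25.5, 24.6 and 18.5. CSF1, the macrophage growth factor, rose 1.83-fold. CXCL12 and CCL26 fell, from 1.36 ± 0.417 to 0.344 ± 0.197 CPM and from 6.80 ± 1.01 to 3.57 ± 0.993. Of 13 complement genes 10 rose (76.92%) and 2 fell (15.38%). Those named were regulators, CFI at 6.52-fold and SERPING1, the C1 inhibitor, at 3.10-fold, from 45.3 ± 3.00 to 140.5 ± 5.35 CPM. CFD, factor D of the alternative pathway, fell 2.03-fold.

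Developmental pathways showed no common direction. In the TGF-beta list 5 of 14 rose (35.7%) and 3 fell (21.4%), against 21.3% and 20.1% of all genes tested. The ligands parted, TGFB1 rising 1.88-fold from 189 ± 5.33 CPM while TGFB2 fell from 193, 205 and 185 CPM to 65.8, 63.7 and 67.0 (log2 −1.57, standard error 0.05, adjusted p = 1.2e-20). LTBP3, a latency protein, rose 2.34-fold, INHBA, an activin chain, fell 2.05-fold, and SMAD3, a signal transducer, fell 1.44-fold. In the BMP list 3 of 17 rose (17.65%) and 6 fell (35.29%). BMP4 fell 1.55-fold from 202 ± 2.98 CPM, the inhibitory SMAD6 1.49-fold and the antagonist NOG 1.26-fold, while the antagonist CHRD rose 1.82-fold.

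In the WNT list 8 of 21 rose (38.1%) and 7 fell (33.3%), against 21.3% and 20.1% of all genes tested. LEF1, a transcription factor and target of the pathway, rose 2.92-fold, from 24, 22.2 and 26.7 CPM to 67.1, 67.0 and 78.5, and the negative feedback genes RNF43 and NKD1 rose 2.24-fold and 2.08-fold. The receptor genes LGR5 and FZD4 fell 5.94-fold and 1.52-fold. In the Notch list 4 of 14 rose (28.6%) and 5 fell (35.7%). The target HES1 was up 2.04-fold, the glycosyltransferase LFNG up 1.82-fold and the receptor NOTCH2 down 1.37-fold. Of 11 osteoblast lineage genes tested 4 rose (36.4%) and 2 fell (18.2%). TNFRSF11B, osteoprotegerin, the decoy receptor that limits osteoclast formation, went from 20.8, 19.1 and 18.9 CPM to 109, 112 and 102. SPP1, osteopontin, rose 2.68-fold and PHEX, an endopeptidase of bone cells, 3.83-fold from under 1 CPM.

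Stress programmes were divided as well. Of 30 tested genes of ATF4 and the integrated stress response, 11 rose (36.67%) and 10 fell (33.33%), against 21.3% and 20.1% of all genes. CEBPB, a transcription factor, and PPP1R15A, a phosphatase subunit that reverses the response, rose 1.83-fold and 1.74-fold, whereas MTHFD2, a mitochondrial folate enzyme, and XPOT, a tRNA exporter, fell 1.39-fold and 1.49-fold. ATF4 itself was at 392, 391 and 406 CPM at day 0 and at 418, 431 and 412 at day +2 and did not pass the test (log2 0.08, standard error 0.04, adjusted p = 0.12). Of 16 ER chaperone and quality control genes 6 rose (37.5%, against 21.3% of all genes) and 3 fell (18.75%, near the 20.1% of all genes). EDEM1, which takes misfolded glycoproteins to degradation, rose 1.89-fold from 131 ± 4.43 CPM, while HSPA5, the main ER chaperone BiP, and CANX, calnexin, fell 1.14-fold and 1.22-fold.

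Targets of NRF2, the factor that answers oxidants, fell in 11 of 18 cases and rose in 3 (median −0.30). TXNRD1, thioredoxin reductase, went from 241, 243 and 232 CPM to 105, 106 and 106 (log2 −1.18, standard error 0.05, adjusted p = 1e-18). HMOX1, heme oxygenase, was one of the 3 that rose, 1.26-fold. Of 3 metallothioneins tested MT2A rose 1.61-fold and MT1E fell 2.07-fold. These short genes are close copies of each other, and the counts of each are uncertain.

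**Figure D3:**
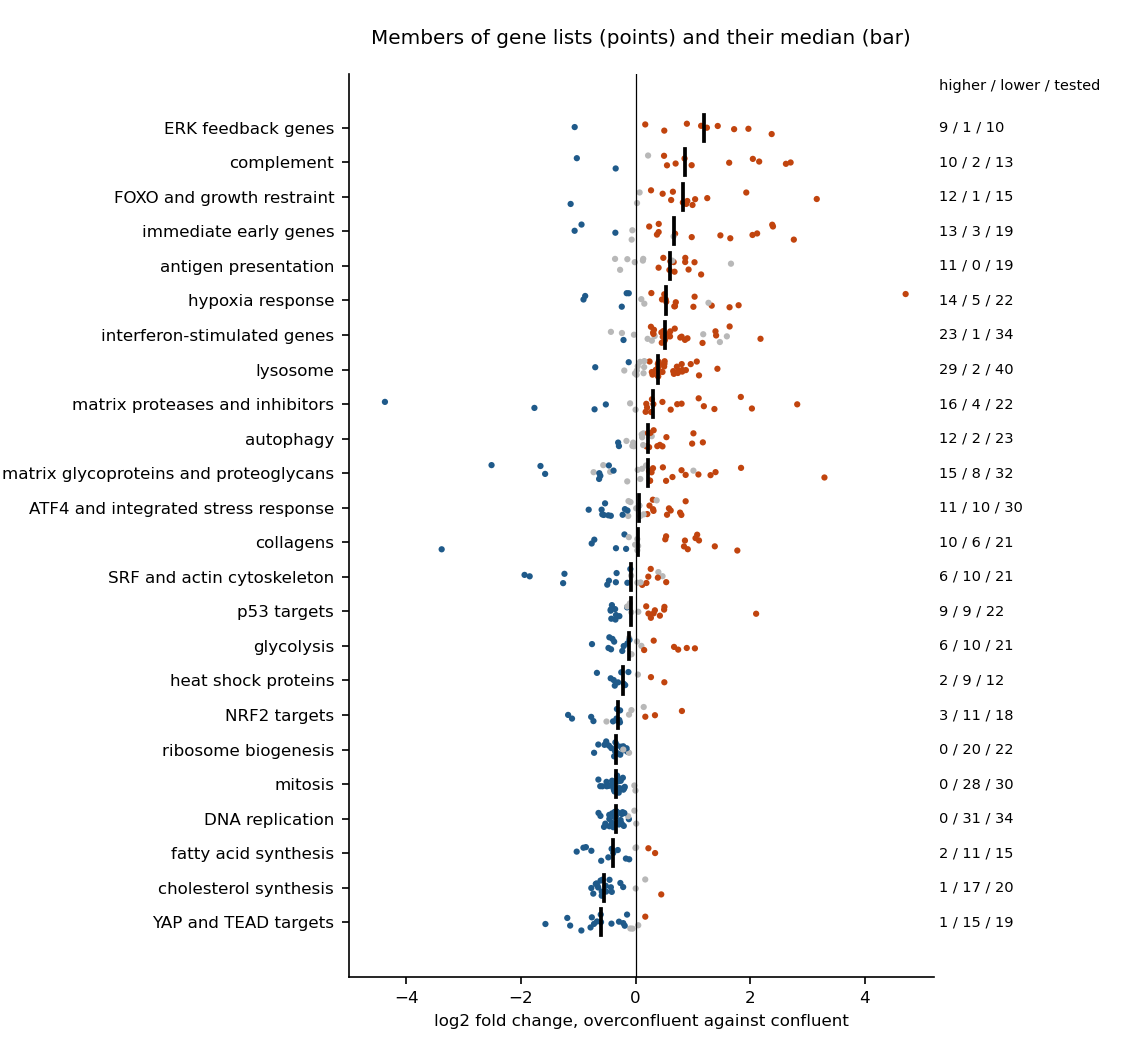
Log2 fold change from day 0 to day +2 of the tested members (points) of 24 gene lists, with the median of each list as a bar and the numbers of members higher, lower and tested at the right. Cell division, ribosome biogenesis, sterol, fatty acid and YAP lists lie left of 0, and lysosome, ERK feedback, interferon, antigen presentation, complement and FOXO lists lie right of it.

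The step before, from subconfluent day −2 to confluent day 0, shares the confluent libraries with the step described here, so that their values are set side by side without a correlation or overlap. It moved 6864 of 19317 genes tested (35.5%), of which 3173 were higher (16.4%) and 3691 lower (19.1%). This balance depended on the scaling, and with upper-quartile scaling 3772 were higher and 3063 lower. The difference between the 2 steps was tested in 1 fit of the 9 control libraries, and 4795 of 20116 genes passed (23.8%). The lists had other balances of calls in the first step. Of the lysosome genes, 4 rose and 14 fell before confluence, against 29 and 2 after it. The mitosis genes had 12 rises and 6 falls before confluence and 28 falls after it, and 25 of the 30 had a lower second step by the test of the difference. Of the ATF4 genes 1 rose and 20 fell in the first step, against 11 and 10 in the second, and of 18 tested antigen presentation genes none rose and 6 fell.

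Single genes show the types of course. CAV1 had a log2 change of −0.04 in the first step (adjusted p = 0.54) and −2.04 in the second, and the steps differed by −2.00 (adjusted p = 9.6e-18). TIMP1, CHI3L1, VEGFA and FBXO32 rose in the second step and had first-step changes of −0.27, 0.34, −0.07 and −0.16. THBS1 and LFNG turned round. THBS1 rose by 0.48 and then fell by 1.66, and LFNG had changes of −0.71 and 0.86. In both the steps differed past the threshold (adjusted p = 4.5e-15 and 2e-13).

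The cholesterol synthesis list had falls in both steps, 17 with no rise in the first and 17 with 1 rise in the second, with medians of −0.41 and −0.55. The test of the difference between the steps passed for 4 of the 20 genes, a share near the 23.8% of all genes. The second step was higher in 2 of them and lower in 2. HMGCS1 had changes of −0.68 and −0.68, and the steps did not differ past the threshold (adjusted p = 0.97). For TXNIP, ABCG1 and RNF43 the first step was the larger, with changes of 2.36, 1.83 and 2.12 before confluence and 1.25, 0.95 and 1.16 after it. MMP2 rose by 0.49 and then by 0.61, and the difference between its steps was 0.13 (adjusted p = 0.27).

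**Figure D4:**
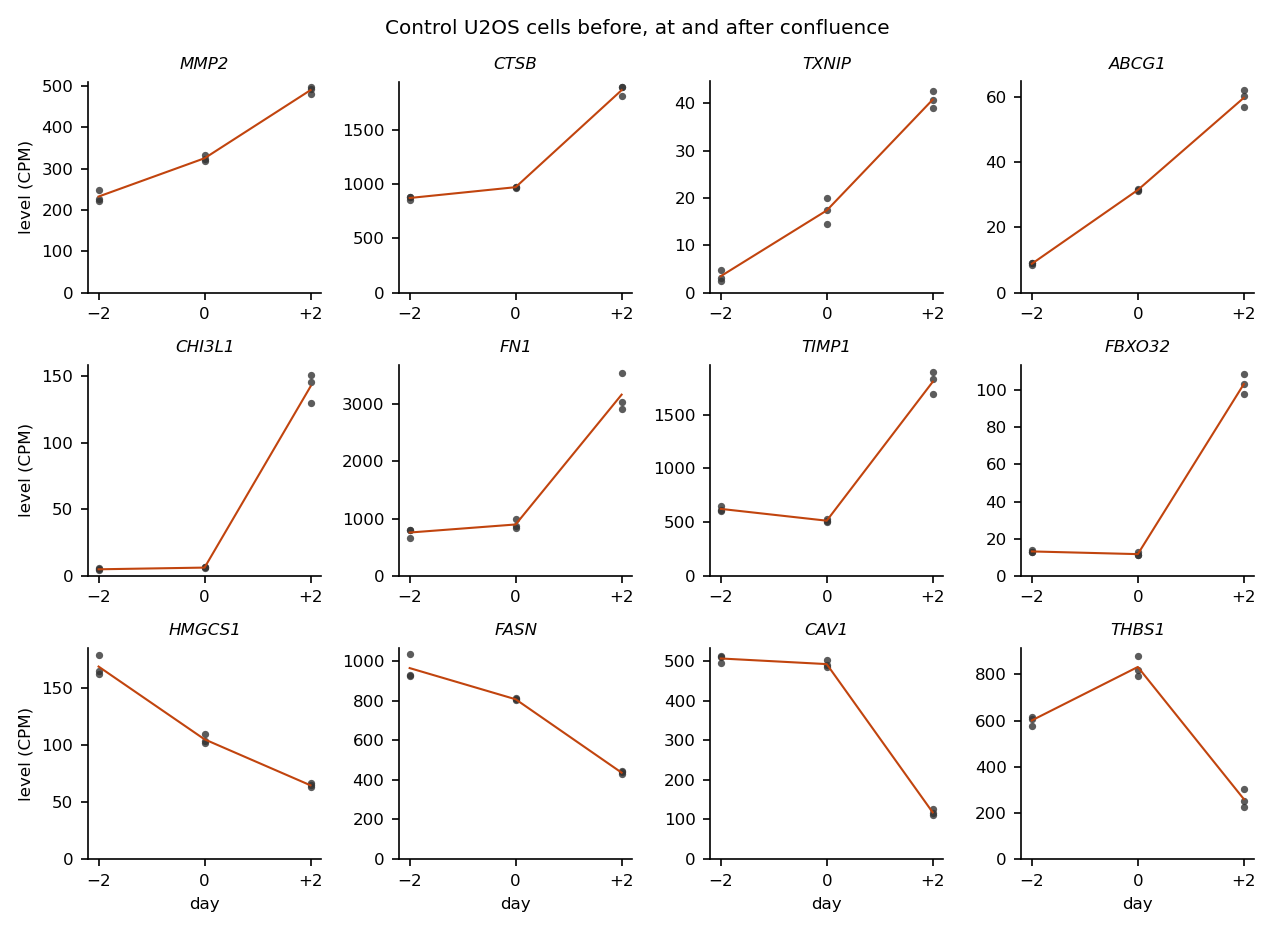
CPM of 12 genes in the control line at days −2, 0 and +2, 3 libraries per day as points with the mean as a line, scaled over all 27 libraries. TIMP1, CHI3L1 and CTSB rise mainly after day 0, CAV1 and THBS1 fall after it, and HMGCS1 falls through both steps.

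The MMP2sh1 and MMP2sh2 lines passed through the same 2 days and share no library with the control, so that their step is the same measure in other samples. In MMP2sh1, 8904 of 19338 genes passed (46%), 4465 higher (23.1%) and 4439 lower (23.0%), and in MMP2sh2, 8719 of 19168 (45.5%), 4318 higher (22.5%) and 4401 lower (23.0%). Of the 7953 genes called in the control and tested in MMP2sh1, 6269 were called with the same sign, 39 with the opposite sign and 1645 were not called. In MMP2sh2 the counts were 6088, 96 and 1755 of 7939. The genes called in both made up 78.69% of the control's calls and 70.84% of those of MMP2sh1, and 77.15% and 70.93% for MMP2sh2. Over all genes tested in both, Pearson's r of the log2 changes was 0.791 with MMP2sh1 (18695 genes) and 0.763 with MMP2sh2 (18627 genes), a description across genes, which are not independent. Of the control's changes over 2-fold, 1149 of 1400 and 1104 of 1386 were called with the same sign and 1 in each line with the opposite sign.

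The lists were counted in these libraries as well, without a test of a list's difference between lines. Mitosis genes had 27 falls and no rise among 30 in each line, and DNA replication genes 31 and 32 falls and no rise among 34. Lysosome genes had 31 rises and 2 falls in MMP2sh1 and 33 and 4 in MMP2sh2, and targets of YAP and TEAD 14 and 15 falls with 2 rises each. Cholesterol synthesis genes had 16 falls in MMP2sh1 and 15 in MMP2sh2, and interferon-stimulated genes 16 and 21 rises among 32. The ATF4 list had 22 rises and 5 falls in MMP2sh1 and 19 and 5 in MMP2sh2, where the control had 11 and 10. CHI3L1 rose by 4.71 and 4.34, FN1 by 2.25 and 1.74, CTSB by 1.33 and 0.98 and CYR61 changed by −1.14 and −1.13 in MMP2sh1 and MMP2sh2. CTGF, at −0.10 and 0.03, did not pass in either line (adjusted p = 0.087 and 0.68). MMP2 rose by 0.73 and 0.84, in lines whose hairpins target it.

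Where the step differed between lines was tested as an interaction of line and day on 12 libraries each, and both tests share the 6 control libraries. Of 20773 genes 967 passed in MMP2sh1 (4.66%) and of 20673 genes 984 in MMP2sh2 (4.76%). Without replicate 3 of the overconfluent control libraries these counts were 610 and 643, and without replicate 2 the count in MMP2sh1 was 632. NOG is an example among the genes named. It changed by −0.33 in the control and rose by 0.88 and 0.36 in MMP2sh1 and MMP2sh2 (adjusted p of the interaction 5.1e-11 and 6.7e-07). HK2 rose by 0.89 in the control and changed by −0.21 and −0.40 in the others (adjusted p of the interaction 3.1e-06 and 1.3e-08). SMAD6 changed by −0.58 in the control and by −1.60 and −1.58 in the others, and CCL2 by 2.54, 3.89 and 3.70. For NOG and HK2 the direction of the step differed, although the change of HK2 in MMP2sh1 lost its call under some alternatives, and for SMAD6 and CCL2 its size.

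**Figure D5:**
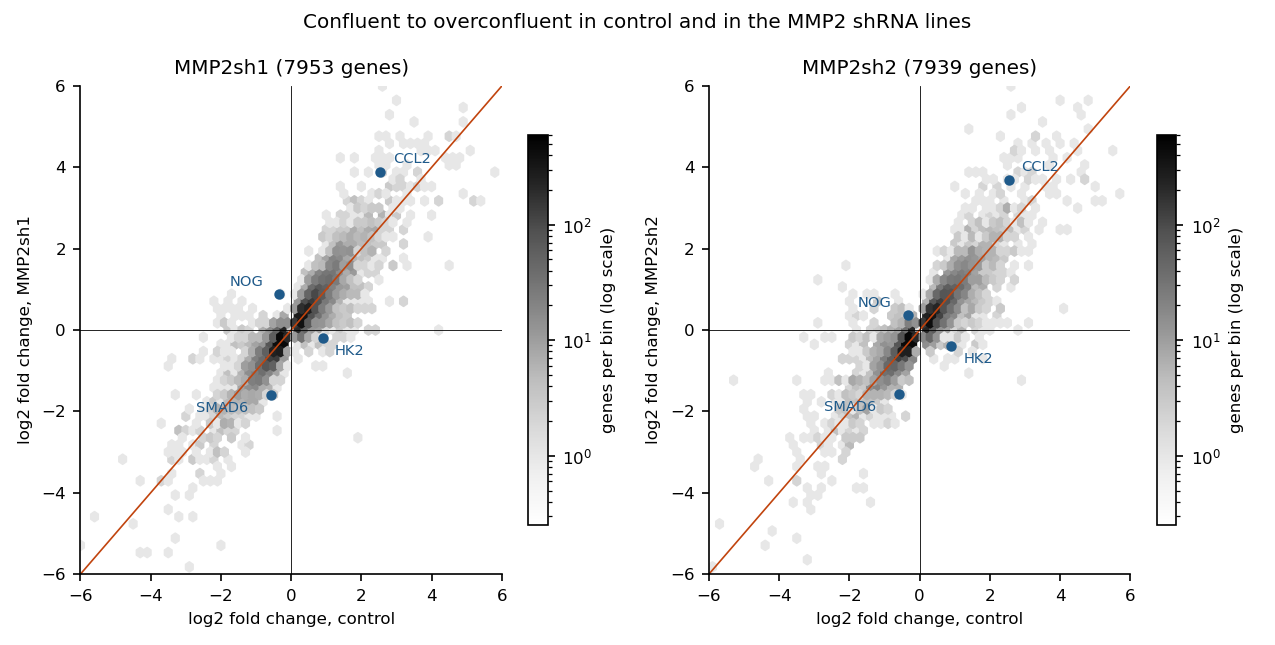
Log2 fold change from day 0 to day +2 in the control (x axis) against that in MMP2sh1 (left, 7953 genes) and MMP2sh2 (right, 7939 genes) for genes called in the control. Most genes lie near the diagonal, and HK2 and NOG lie in the quadrants of opposite sign in both panels.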

How the data were processed

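Poly(A) RNA of U2OS cells was sequenced in paired reads (3 libraries per line and density). According to the methods and the submitters' processing notes, the authors used Trim Galore 0.6.0 for trimming, STAR 2.7.3a for alignment to hg19, Samtools for filtering and HTSeq 2.0.0 for unstranded counting on exons (minimum alignment quality 10). The files deposited hold these counts as raw whole numbers, 1 per gene symbol. The 5 summary lines that name no gene, 17.8% to 19.0% of the counted total in the 6 libraries, were left out. Since strand was not used, reads of genes that overlap, run antisense or share sequence may be lost or misassigned.

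Every comparison had a fit of its own in edgeR 4.0.16 under R 4.3.3 (TMM scaling, filterByExpr with minimum count 10 and minimum total 15, quasi-likelihood test, Benjamini-Hochberg adjusted p under 0.05 over all genes tested). Standard errors are the log2 change divided by the square root of F. CPM values use the TMM factors, and each ± is the SD over 3 libraries. Totals on genes were 33778818 to 45180727 per library, and the number of libraries, 3 per group, limits the precision.

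Genes named were MMP2 and CTSB, the 12 largest rises and falls among called genes with a mean of at least 2 CPM and a gene name, the 4 smallest p values per direction, up to 3 genes per list and direction by p, and known heads of pathways. A few genes that this rule names are not reported here. The members and the 46 gene lists were chosen with earlier results of these data known. Lists are described by counts and medians, with no set test. Positions are from GENCODE on GRCh37, and promoter windows from RefSeq on GRCh38.p14, with the first listed window per symbol.

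The fits were tested on simulated data. Alternatives were median-of-ratios and upper-quartile scaling, DESeq2 1.42.0, no filter, at least 10 counts in every library, 1 fit of all 27 libraries, the replicate number as a block, mitochondrially encoded genes left out, and each library left out in turn.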

Additional observations from a re-analysis of the deposited data

Results flagged for a closer look

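Results were picked out where the step from day 0 to day +2 differed between the control and an MMP2 hairpin line by edgeR's test of the interaction of line and day. This held for 967 genes in MMP2sh1 (4.66% of those tested) and 984 in MMP2sh2 (4.76%), and for 68 of the 179 genes named here, 25 of them in both lines. Most of the named genes were chosen for their control step, whose values enter this test, so that their share is not to be read against that of all genes. The values below are the step in the hairpin line minus the step in the control on the log2 scale, with MMP2sh1 first where there are 2. Because both lines are compared with the same 6 control libraries, agreement between them in sign is not independent.

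Several genes differed mainly in the size of a rise. FBXO32 (0.79 and 0.66), GSN (0.64 and 0.34), PHLDA1 (0.59 and 0.48), IGFBP5 (0.54 and 0.42), CCL2 (1.37 and 1.17), TNFRSF11B (0.83 and 0.54), RNF43 (0.92 and 1.11), LAMB1 (0.31 and 0.28) and PCDHB14 (0.85 and 0.71) had a larger rise in both hairpin lines than in the control.

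Falls were larger in both hairpin lines for CAV1 (−0.49 and −0.36), KRT81 (−0.28 and −0.69), TGFB2 (−0.45 and −0.31), LDHA (−0.43 and −0.39), CA12 (−0.92 and −0.68), FLNC (−0.50 and −0.52), DUSP1 (−0.91 and −0.85), SMAD3 (−0.56 and −0.64), SMAD6 (−1.01 and −0.9999), TXNRD1 (−0.31 and −0.31) and MT1E (−0.41 and −0.41). The falls of CCND1 and SREBF2 in the control had no called counterpart in either line, and the differences were 0.40 and 0.21 for CCND1 and 0.31 and 0.23 for SREBF2. The direction of the step turned for HK2 (−1.09 and −1.29), NOG (1.22 and 0.70) and HIST1H1C (−0.77 and −1.02).

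In MMP2sh1 alone the test passed for TNNT2 (−1.48), A2M (0.69), VEGFA (0.35), CTSB (0.38), SERPINE2 (0.49), FN1 (0.42), COL6A1 (0.35), COL6A3 (0.45), TPM1 (−0.31), ZYX (0.46), ETV4 (0.26), KLF9 (0.47), IGFBP7 (0.55), SERPING1 (0.29), FZD4 (−0.52), MTHFD2 (0.46), HSPD1 (−0.27), ATP5B (−0.22) and ZNF404 (−0.65). In MMP2sh2 alone it passed for MISP (1.03), INSIG1 (0.41), NPC1 (−0.34), SCD (0.33), SLC2A3 (−0.37), NDRG1 (−0.60), GABARAPL1 (−0.56), SQSTM1 (−0.40), MMP2 itself (0.24), MMP24 (0.43), TGFBI (0.30), FJX1 (−0.29), FHL2 (0.33), CITED2 (−0.36), BST2 (−0.48), CCL26 (−1.02), CFI (−0.54), LEF1 (−0.55), HES1 (0.38), BAG3 (−0.42), MT2A (−0.68), RPS27 (−0.78), MT-ND3 (−0.73) and ERG (−0.59). The call was lost under 1 or more of the alternatives for KRT81, VEGFA, FN1, LAMB1, ETV4, SERPING1 and MT1E in MMP2sh1, and for CCND1, SREBF2, MMP2, MMP24, LAMB1, TGFBI, FJX1, FHL2, CITED2, IGFBP5, CCL26, CFI, HES1, TXNRD1, MT1E and ERG in MMP2sh2. Whether the 2 hairpin lines differ from each other in these genes was not tested.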

How the results depend on the processing

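Over the alternatives that kept all libraries, the control step gave 7508 to 8027 called genes (8016 as reported) and 1131 to 1577 past 2-fold (1463). With 1 library left out it gave 7062 to 7442 and 1404 to 1505. The balance of higher and lower calls reversed under some alternatives. The control step had 3580 higher and 4138 lower in 1 fit of all 27 libraries, against 4123 and 3893 as reported. Upper-quartile scaling gave 3772 higher and 3063 lower in the earlier step, against 3173 and 3691. The earlier step ranged from 5679 to 6889, the difference between steps from 3540 to 4852, and the step in MMP2sh1 and MMP2sh2 from 7913 to 8907 and from 7770 to 9007. The interactions were the least stable. With 1 library left out they ranged from 610 to 1269 genes in MMP2sh1 (967 as reported) and from 643 to 1140 in MMP2sh2 (984). They moved by over 1.5 times without control replicate 3 of the overconfluent libraries (610 and 643) and, in MMP2sh1, without replicate 2 (632). In the control step none of the 179 named genes reversed its sign under these alternatives, and CTGF, ASAP1, OAS3 and ATRX lost their call in some. In the other comparisons no called value of a named gene reversed. Calls were lost under 1 or more alternatives by 27 of 128 named genes called in the earlier step, 15 of 149 in the difference between steps, 7 of 172 and 5 of 171 in the steps of MMP2sh1 and MMP2sh2, and 7 of 44 and 16 of 49 in their interactions. The median log2 change of all genes moved by less than 0.1 under every scaling. The medians of 29 of the 46 lists moved by more than the spread between replicates (1 SD) under at least 1 alternative, in 59 values against 583 that did not, and those of the BMP, Notch, epithelial and endothelial lists changed sign under 1 or 2 alternatives each.

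The replicate numbers do not pair the samples. Deviations of same-numbered libraries of the 2 days from their group means correlated at −0.0094, −0.0082 and −0.0016. With the replicate number as a block, 7797 genes were called in the control step, and among the named genes only ATRX lost its call. At 3 libraries per group, genes with few reads such as CXCL12 (standard error 0.48) and LAIR2 (0.37) had the largest standard errors among those named.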

Other observations

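Components of the translation and respiration machinery moved by small amounts. Of 81 cytosolic ribosomal protein genes 50 rose (61.7%, against 21.3% of all genes) and 5 fell (6.17%, against 20.1%). Their median was 0.16, with an SD of that median between replicates of 0.07. All tested ribosome biogenesis genes, in contrast, had negative changes. RPS27 went from 665, 526 and 639 CPM to 928, 1027 and 986, and RPLP0, whose product is the stalk protein P0, fell 1.10-fold. Replicate 2 of the confluent libraries was the lowest of its group for RPS27, as for MT-ND3 (611, 522 and 601 CPM at day 0). In MMP2sh1 8 of the 81 rose and 29 fell, and in MMP2sh2 3 rose and 56 fell, and the interaction of line and day passed for 20 of them in MMP2sh1, each lower, and for 58 lower and 1 higher in MMP2sh2. Of 13 mitochondrially encoded mRNAs 7 rose (53.85%, against 21.3% of all genes) and none fell in the control. Only 4 of the 7 had no overlap between the days, which held for 49.1% of all genes tested, called or not. The median was 0.19, with an SD of that median between replicates of 0.12. Members of such lists can shift together between libraries, so the counts are not independent. MT-CO3, a cytochrome oxidase subunit, was up 1.29-fold to 7329 ± 548 CPM. Of 79 tested nuclear genes of the respiratory chain 9 rose (11.39%) and 27 fell (34.18%), against 21.3% and 20.1% of all genes. ATP5B, a subunit of ATP synthase, was down 1.40-fold from 647 ± 6.05 CPM.

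The clustered protocadherins, adhesion proteins whose genes lie side by side on chromosome 5, had 22 rises and no fall among 49 tested (median 0.52). PCDHB14 went from 8.88, 8.80 and 8.79 CPM to 19.9, 19.2 and 19.4 and PCDHGC3 rose 1.71-fold. Neighbouring genes of the cluster share sequence, so that reads can be lost or assigned to the wrong member. Of 483 zinc finger genes 435 were tested, 109 rose (25.06%, against 21.3% of all genes) and 29 fell (6.667%, against 20.1%), with a median of 0.10, among them ZNF697, which rose 1.75-fold, and ZNF404, which fell 4.15-fold. Of 37 tested replication-dependent histone genes 8 rose (21.62%, near the 21.3% of all genes) and 3 fell (8.108%, against 20.1%). HIST1H1C and HIST2H2BE rose 1.29-fold and 1.51-fold. Most mRNAs of these genes lack a poly(A) tail, and the libraries were made from poly(A) RNA, so that the values describe the polyadenylated part.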
